A study of Homo sapiens with 12 samples.

Results

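The genes of this report encode the enzymes of glycolysis with their isoforms, the transporters that bring glucose in and take lactate out, and targets of the hypoxia-inducible factors (HIFs). They were chosen by name for their function, with earlier results of these data known, and all 43 were among the 26485 genes of the table. RNA was sequenced from HepG2, an established human hepatoma line, in 4 stable lines with 3 wells each. The line named Empty had been transfected with an empty CRISPR vector and is labelled wild type, and Z2, Z5 and Z9 had received the vectors sgZHX3-2, sgZHX3-5 and sgZHX3-9 and are labelled ZHX3-depleted. All 4 lines were selected with blasticidin and grown in low-glucose DMEM with serum. The sources used here do not say whether a line is 1 clone or a pool, nor name the oxygen level of the culture. The wells of a line are its replicates (a, b and c), so p-values measure the spread between wells and not between independently made lines, and the vectors cannot be told apart from the history of the single Empty line.

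Library totals ranged from 50864744 to 65428204 counts. Wells of a line differed by more than counting error, with a chi-square per degree of freedom of 6.01 to 19.5 for 10 of 12 pairs. Z2 b stood apart from Z2 a (42.97) and Z2 c (30.2). ZHX3 mRNA did not pass the test in any labelled line (edgeR adjusted p = 0.402, 0.972 and 0.490 for Z2, Z5 and Z9 against Empty), and a gene-level count does not check a small insertion or deletion. The hepatocyte and HepG2 markers were present, with a summed level of 10 genes between 56539 and 64870 CPM (counts scaled to a common library total) per well. Empty wells held 63397 to 64870, Z2 wells 58396 to 63209.6, Z5 wells 60614 to 62047, and Z9 wells, the lowest, 56539 to 57813. Single markers moved apart within that sum. ALB averaged 17529 ± 797 CPM (Empty), 11517 ± 789.8 (Z2), 11480.2 ± 635 (Z5) and 11974 ± 496 (Z9), and SERPINA1 averaged 8730.2 ± 527 CPM (Empty), 10936 ± 1214 (Z2), 10723 ± 581 (Z5) and 10086 ± 529 (Z9). Of markers of other liver cells, DCN, KDR, EMCN and MARCO had 0 counts. The fibroblast and stellate list summed to 42.4 to 56.4 CPM, the endothelial list to 6.22 to 8.57, and the leukocyte list, nearly all of it LYZ, to 1591 to 2163. The cholangiocyte list was at 1192 to 1299 CPM in Empty and 1423 to 1723 in the other 9 wells, a gap made mostly by SPP1 (330.1 ± 15.8 CPM (Empty), 583 ± 58.3 (Z2), 595 ± 44.8 (Z5) and 632 ± 22.2 (Z9)), while SOX9 and EPCAM stayed within 301 to 314 and 159 to 164 CPM by line mean. The part of these shifts in the results was not tested.

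Glycolysis splits glucose into pyruvate in the cytosol. Hexokinase traps glucose in the cell, phosphofructokinase commits it, pyruvate kinase makes pyruvate, and lactate dehydrogenase turns pyruvate into lactate when it is not burned in mitochondria. HIF is a dimer of an alpha subunit (HIF1A or EPAS1) with ARNT. In oxygen the EGLN prolyl hydroxylases mark the alpha subunit for destruction. In hypoxia it accumulates as protein and raises many glycolytic genes, so its mRNA level says little about its activity. Hepatoma cells differ from normal hepatocytes in using HK2 and PKM where the liver uses glucokinase and PKLR.

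HIF binds DNA at a short core, ACGTG or GCGTG. This core was searched on both strands in the 250 bases before the start used in the promoter entry of each gene (RefSeq, GRCh38.p14). Overlapping matches were merged and counted once. For some members this start lay inside the gene span, as for GAPDH, with a window from 6535014 to 6535263 and a gene from 6534517. Of 37 members with an entry, 24 (64.9%) held at least 1 match, against 43.1% of all 27305 promoters of the table. Many members were listed because they are HIF targets, and the windows were not matched for base content, so these shares are no test. NDUFA4L2, SLC2A3, VEGFA, PFKFB2, NDRG1 and BNIP3L had no entry. The windows below belong to 4 members with 3 or more matches that were lower in Z9 than in Z2, and to EGLN3 and HK1, which were higher in every labelled line than in Empty and had 0 matches. Matches are in capitals, and each window is written 5′ to 3′ on the strand of its gene.
BNIP3 (chr10:131981924-131982173, minus strand): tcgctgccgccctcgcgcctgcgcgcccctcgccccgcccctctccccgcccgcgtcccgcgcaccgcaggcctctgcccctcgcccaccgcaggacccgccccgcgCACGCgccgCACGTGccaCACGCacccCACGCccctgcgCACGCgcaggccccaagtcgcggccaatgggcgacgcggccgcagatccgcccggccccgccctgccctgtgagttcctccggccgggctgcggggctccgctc
PGK1 (chrX:78103998-78104247, plus strand): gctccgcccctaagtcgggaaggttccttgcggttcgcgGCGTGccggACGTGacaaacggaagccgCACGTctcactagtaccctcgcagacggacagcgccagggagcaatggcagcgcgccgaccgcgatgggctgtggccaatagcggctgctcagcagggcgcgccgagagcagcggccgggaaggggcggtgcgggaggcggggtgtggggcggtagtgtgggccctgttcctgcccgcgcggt
LDHA (chr11:18394313-18394562, plus strand): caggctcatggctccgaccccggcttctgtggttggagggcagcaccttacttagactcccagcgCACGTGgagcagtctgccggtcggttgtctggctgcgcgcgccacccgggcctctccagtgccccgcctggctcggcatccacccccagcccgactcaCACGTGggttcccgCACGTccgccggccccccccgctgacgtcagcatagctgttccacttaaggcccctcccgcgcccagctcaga
ALDOC (chr17:28576896-28577145, minus strand): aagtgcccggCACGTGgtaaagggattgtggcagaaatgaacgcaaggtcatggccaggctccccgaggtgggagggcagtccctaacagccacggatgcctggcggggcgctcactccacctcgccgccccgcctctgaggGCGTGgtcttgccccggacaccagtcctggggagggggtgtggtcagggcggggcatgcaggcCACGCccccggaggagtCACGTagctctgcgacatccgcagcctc
EGLN3 (chr14:33951075-33951324, minus strand): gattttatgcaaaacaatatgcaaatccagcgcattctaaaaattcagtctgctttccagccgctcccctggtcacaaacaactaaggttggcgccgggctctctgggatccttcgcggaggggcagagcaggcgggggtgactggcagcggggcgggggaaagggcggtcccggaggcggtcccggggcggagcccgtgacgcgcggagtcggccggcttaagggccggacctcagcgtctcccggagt
HK1 (chr10:69269750-69269999, plus strand): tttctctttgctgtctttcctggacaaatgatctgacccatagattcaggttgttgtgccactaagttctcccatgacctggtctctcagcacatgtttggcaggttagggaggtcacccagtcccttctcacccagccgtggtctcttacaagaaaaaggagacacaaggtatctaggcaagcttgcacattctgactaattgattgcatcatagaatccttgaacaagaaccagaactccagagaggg
The BNIP3 window held 5 matches, ALDOC 4, and PGK1 and LDHA 3 each. Other members called lower in Z9 than in Z2 held fewer, with 0 for SLC2A1, PGAM1 and PDK1 and 1 for PFKFB4, ENO2 and P4HA1. HK2 and DDIT4 held 3 each and were not called between these lines. Whether matches go with the changes was not tested. A match is a description of these letters and not a measured binding site, and a window without one says nothing about sites elsewhere in the gene.

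Levels were first set against each other per length, as CPM per kb of the union of GENCODE release 29 exons, which may differ from the annotation used for counting. GAPDH, the enzyme that oxidises glyceraldehyde phosphate, was the highest member in Empty at 1506 ± 89.5 CPM per kb (SD, n = 3 wells). ALDOA, which cleaves the sugar, followed at 692 ± 36.1, ENO1, an enolase, at 584 ± 19.5, LDHA, a lactate dehydrogenase subunit, at 342 ± 8.75 and TPI1, a triose isomerase, at 294 ± 3.84. These 5 all act after phosphofructokinase. HK2 was at 159 ± 12.4 CPM per kb and HK1 at 1.07 ± 0.0838, so HK2 made 99.3% ± 0.0901 of the pair. PKM made 98.2% ± 0.0173 of the pyruvate kinase pair, and PKLR, the liver and red cell form, the rest. PFKL made 93% ± 0.954 of the 3 phosphofructokinase subunits. The glucose transporters SLC2A1 and SLC2A3 stood side by side in Empty, at 232 ± 8.42 and 231 ± 29 CPM per kb. The lowest members were CA12 at 0.0648 ± 0.00457, NDUFA4L2 at 0.264 ± 0.0534 and PFKM at 0.524 ± 0.0400 CPM per kb.

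**Figure D1:**
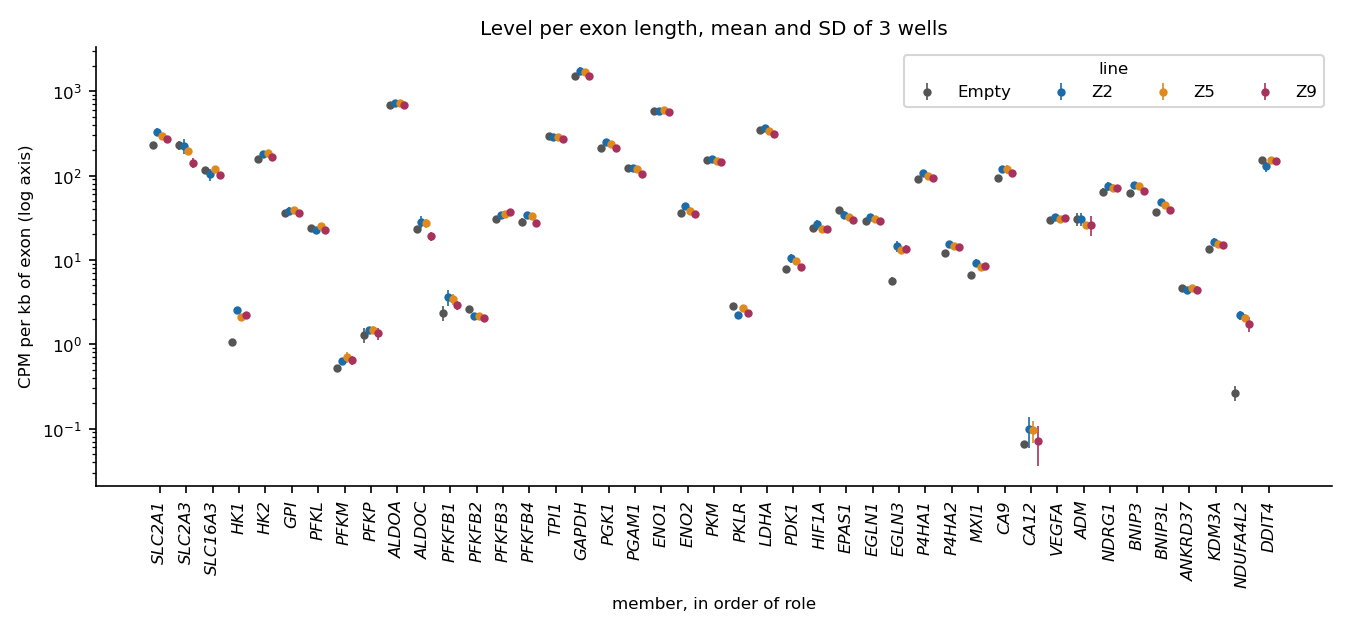
Level of each of the 43 members (x axis, in order of role) as CPM per kb of exon on a log axis, mean and SD of 3 wells in each of the 4 lines. The members span from CA12, the lowest, to GAPDH, the highest, and the lines differ most at HK1, EGLN3 and NDUFA4L2.

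Each labelled line was then compared with Empty, to describe how these genes differed between the lines. Most members that moved were higher in Z2 and Z5, and fewer were higher in Z9. In Z2 17 of 43 members were higher and 3 lower (edgeR adjusted p under 0.05), with a median log2 fold change of 0.21. Over all 15289 genes tested, 12.4% were higher and 11.5% lower, with a median of 0.0035. In Z5 15 were higher and 2 lower with a median of 0.13, beside 8.27% and 6.68% of all genes. In Z9 7 were higher and 5 lower with a median of 0.014, beside 9.66% and 9.58%. For the mean of the 3 lines, 16 were higher and 3 lower, beside 13.0% and 12.6% (25.6% in either direction). All 43 members passed the filter on low counts. The 3 comparisons share the Empty wells, so their likeness is not independent evidence. Since these are bulk libraries, a change in the number of cells of a state and a change of RNA per cell cannot be told apart. Without Empty a, 20 calls in either direction became 14 for Z2, 17 became 10 for Z5, 12 became 10 for Z9 and 19 became 13 for the mean. Leaving out Z5 b gave 11 for Z5, and leaving out Z5 c gave 10. The calls over all genes also fell. Without Empty a, 3654 became 2130 for Z2, 2286 became 1105 for Z5, 2941 became 1720 for Z9 and 3911 became 2107 for the mean. For Z5 they became 1146 without Z5 b and 1087 without Z5 c.

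**Figure D2:**
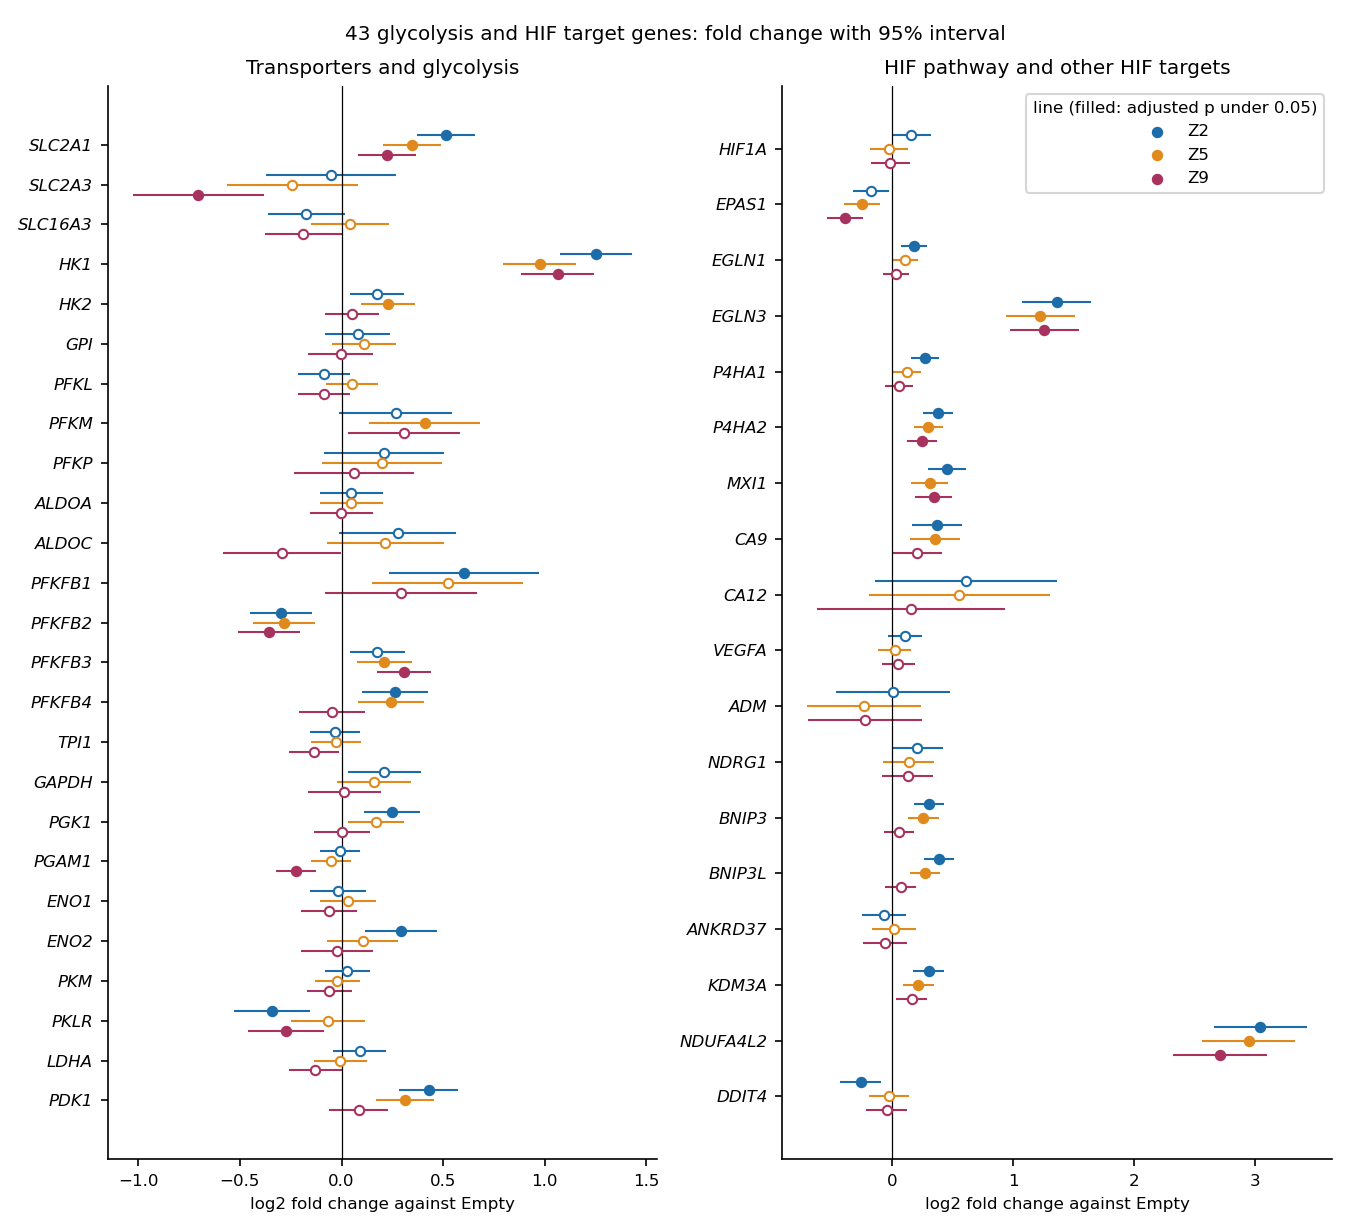
Log2 fold change of each member against Empty (x axis) in Z2, Z5 and Z9, with 95% intervals from edgeR, and filled points for an adjusted p under 0.05. NDUFA4L2 stands near 3 in each line, HK1 and EGLN3 between 0.97 and 1.36, and most other members lie within 0.5 of 0.

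By wells, 8 members (18.6%) had all 9 wells of the labelled lines above all Empty wells, beside 8.83% of all genes tested. They were SLC2A1, HK1, PDK1, EGLN3, P4HA2, MXI1, KDM3A and NDUFA4L2. PFKFB2 alone (2.33%) had all 9 below, beside 8.31%.

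**Figure D3:**
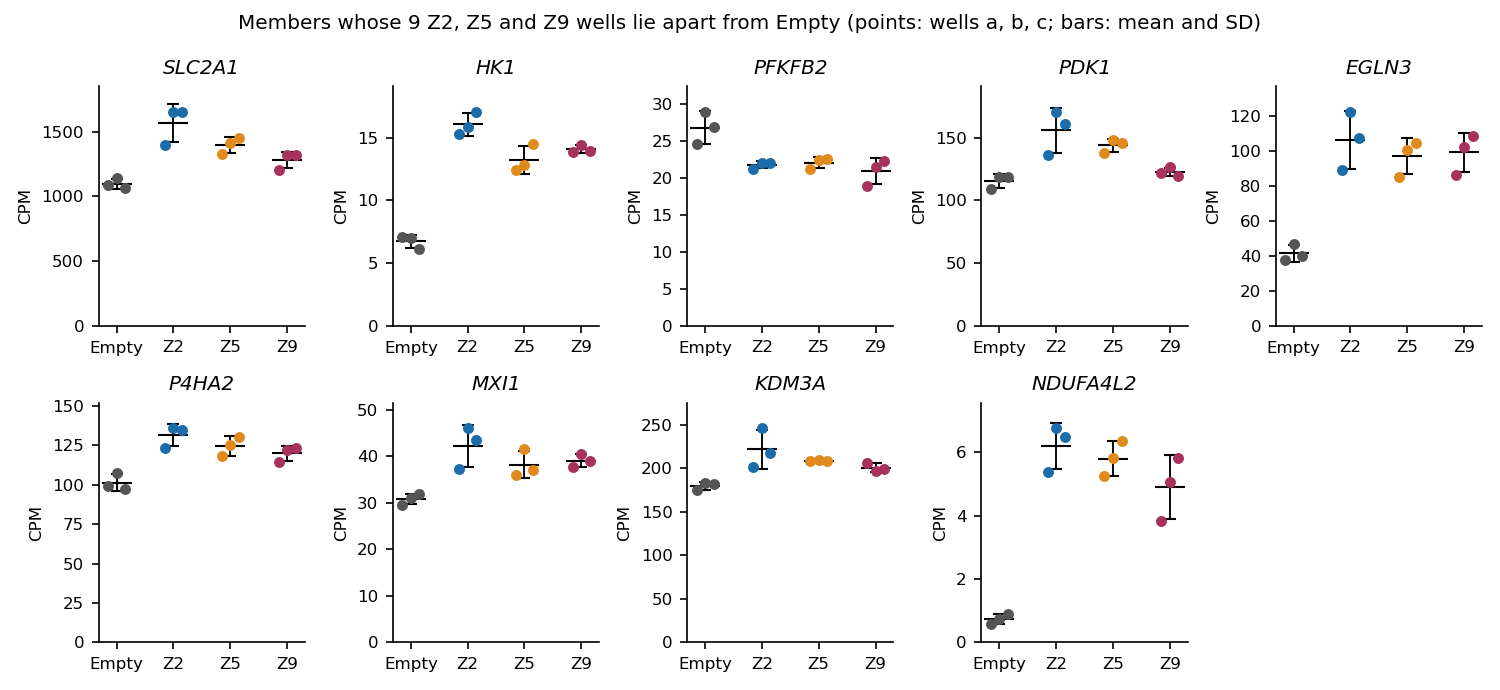
CPM per well (y axes from 0) of the 9 members whose 9 Z2, Z5 and Z9 wells do not overlap the 3 Empty wells, with mean and SD of each line. NDUFA4L2 is under 1 CPM in each Empty well and at 3.84 to 6.76 CPM in the others, and PFKFB2 is the member with Empty highest.

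Among the transporters, the glucose importers parted. SLC2A1 (GLUT1), the basal glucose carrier of most cells, lies on chromosome 1 from 42925353 to 42958868 (RefSeq, GRCh38.p14, as for all gene positions here). It was at 1085, 1142 and 1065 CPM in Empty wells a, b and c, 1399, 1654 and 1651 in the Z2 wells, 1326, 1412 and 1449 in the Z5 wells and 1207, 1319.6 and 1316 in the Z9 wells. Every labelled well lay above the Empty wells, and Z9 lay below Z2 and Z5. SLC2A1 rose by 0.52 for Z2, 0.35 for Z5 and 0.22 for Z9 on the log2 scale (edgeR adjusted p = 3.8e-05, 0.00205 and 0.0271). SLC2A3 (GLUT3), a carrier with high affinity for glucose on chromosome 12 from 7919230 to 7936187, was at 1382, 1618 and 1268 CPM in Empty wells a, b and c, 1094, 1645 and 1374 in the Z2 wells, 1119.8, 1191 and 1299.7 in the Z5 wells and 746, 897 and 974 in the Z9 wells. The Z9 wells were the lowest of all, while Empty and Z2 overlapped. It fell in Z9 (-0.71 ± 0.15, SE, edgeR adjusted p = 0.00642), and its values in Z2 and Z5 were -0.053 and -0.24 (adjusted p = 0.832 and 0.307, edgeR). SLC2A3 is close in sequence to SLC2A14, so its count is uncertain. As a share of the summed level of both carriers per length, SLC2A1 was 50.3% ± 2.2 (Empty), 60.1% ± 3.0 (Z2), 60.2% ± 0.844 (Z5) and 65.8% ± 2.01 (Z9), as mean and SD of 3 wells. SLC16A3, the lactate exporter MCT4, did not pass the test in any line, with -0.17 for Z2, 0.042 for Z5 and -0.19 for Z9. The SLC2A1 call in Z9 was lost without Empty a, Empty c, Z9 b or Z9 c (edgeR adjusted p up to 0.109).

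Among the members of upper glycolysis, the large change was that of HK1, the minor part of the HK1 and HK2 pair. HK1, the widely expressed hexokinase, lies on chromosome 10 from 69270000 to 69401882 and was at 7.1, 7.0 and 6.14 CPM in Empty wells a, b and c, 15.3, 15.9 and 17.1 in the Z2 wells, 12.4, 12.8 and 14.5 in the Z5 wells and 13.9, 14.4 and 13.9 in the Z9 wells. The lowest labelled well was at 12.4 CPM and the highest Empty well at 7.1. HK1 rose by 1.25 for Z2, 0.97 for Z5 and 1.06 for Z9 on the log2 scale (SE 0.084, 0.085 and 0.085, edgeR adjusted p = 2.2e-08, 5.2e-07 and 1.4e-07). It stayed a small part of the pair, from 0.675% ± 0.0901 in Empty to 1.41% ± 0.0200 in Z2. HK2, the tumour form, averaged 962 ± 75.1 CPM (Empty), 1084 ± 57.2 (Z2), 1128 ± 53 (Z5) and 996 ± 32.4 (Z9). HK2 rose in Z5 (0.23, edgeR adjusted p = 0.0213) and in the mean of the lines (0.15, adjusted p = 0.0418), while in Z2 and Z9 it gave 0.17 and 0.051. Of the other members, PFKM, the muscle phosphofructokinase subunit, rose in Z5 (0.41) and in the mean (0.33), at 183 to 335 counts per well. GPI, PFKL, PFKP and ALDOA passed in no comparison, with means of 0.062, -0.04, 0.16 and 0.032. ALDOC, a minor aldolase, gave 0.28 for Z2, 0.22 for Z5 and -0.29 for Z9, and none of these passed. In the mean, the HK2 call was lost without Empty a, Empty c, Z2 c, Z5 b, Z5 c, Z9 b or Z9 c (edgeR adjusted p up to 0.336) and the PFKM call without Empty a, Empty c, Z2 c, Z5 b, Z5 c or Z9 b. In Z5 the HK2 call was lost without Empty a, Z5 b or Z5 c, and that of PFKM without any Empty well, Z2 c, Z5 b, Z5 c or Z9 c (adjusted p up to 0.231, edgeR).

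The PFKFB enzymes make and remove the allosteric activator of phosphofructokinase, and their isoforms moved apart. PFKFB2, the heart form, was at 24.5, 28.9 and 26.9 CPM in Empty wells a, b and c, 21.2, 22 and 22 in the Z2 wells, 21.2, 22.4 and 22.5 in the Z5 wells and 18.9, 21.5 and 22.2 in the Z9 wells. Each Empty well was above each labelled well. PFKFB2 fell in the 3 lines (-0.30 for Z2, -0.28 for Z5 and -0.36 for Z9, edgeR adjusted p = 0.00677, 0.0144 and 0.00209). PFKFB3, the inducible form, averaged 185 ± 13.7 CPM (Empty), 209 ± 15.4 (Z2), 214 ± 10.2 (Z5) and 229 ± 6.83 (Z9). It rose in Z5 (0.21), in Z9 (0.31, edgeR adjusted p = 0.00263) and in the mean (0.23), and in Z2 it gave 0.18 (adjusted p = 0.0532). PFKFB4, a HIF target, rose in Z2 (0.26) and Z5 (0.24) and gave -0.045 in Z9. PFKFB1, the liver form, rose in Z2 (0.60, edgeR adjusted p = 0.0211) at 189 to 453 counts per well. By share per length, PFKFB3 and PFKFB4 made 47.7% ± 2.94 and 44.5% ± 2.36 of the 4 enzymes in Empty, and 53.6% ± 0.842 and 39.3% ± 1.38 in Z9. By edgeR, calls were lost for PFKFB2 in Z5 without Empty b, for PFKFB3 in Z5 without Empty a, Empty c, Z5 a or Z5 c, and for PFKFB1 in Z2 without Empty a, Z2 b or Z2 c. PFKFB4 lost its call in Z2 without Empty a or Z2 c, and in Z5 without Empty a, Z5 b, Z5 c or any Z9 well, and both its calls went when the line was fitted with Empty alone.

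Lower glycolysis holds GAPDH, ENO1 and TPI1, 3 of the 5 highest members, and none of these passed against Empty. Of 8 members, 2 rose and 1 fell in Z2 (12.4% and 11.5% of all genes), none of 8 was called in Z5 (8.27% and 6.68%) and 2 fell in Z9 (9.66% and 9.58%). With 8 genes such counts lie near the shares over all genes. In Z5, 1 of the 8 had an unadjusted p under 0.05 in edgeR, and DESeq2 called 0. PGK1, a kinase that makes ATP, was at 1174, 1222 and 1095 CPM in Empty wells a, b and c, 1301, 1451 and 1396 in the Z2 wells, 1247, 1334 and 1340.1 in the Z5 wells and 1069, 1186 and 1242 in the Z9 wells. Each Z2 and Z5 well was above each Empty well, and the Z9 wells overlapped Empty. PGK1 rose in Z2 (0.25, edgeR adjusted p = 0.0110), with 0.17 in Z5 and 0.0027 in Z9. ENO2, the neuronal enolase and a HIF target, rose in Z2 (0.29). PGAM1, a phosphoglycerate mutase, was at 315, 321 and 304 CPM in Empty wells a, b and c, 306, 311 and 317 in the Z2 wells, 306, 293 and 309 in the Z5 wells and 267, 271 and 267 in the Z9 wells. Its Z9 wells were lower than all 9 others. PGAM1 fell in Z9 (-0.22 ± 0.047, edgeR adjusted p = 0.00284). PKLR fell in Z2 (-0.34) and Z9 (-0.27), and averaged 8.93 ± 0.383 CPM (Empty), 7.04 ± 0.532 (Z2), 8.53 ± 0.465 (Z5) and 7.39 ± 0.473 (Z9). TPI1, GAPDH, ENO1 and PKM passed in no comparison, and the 95% interval of the mean change ran from -0.13 to 0.095 for ENO1, -0.11 to 0.073 for PKM and -0.02 to 0.28 for GAPDH (log2). GAPDH has 62 named pseudogenes in the annotation and PGAM1 13, and the handling of reads with several positions is not given, so these counts are uncertain. Calls were lost by edgeR for PGK1 in Z2 without Empty c, for ENO2 in Z2 without Empty a, Empty c, Z2 b or Z2 c, and for PKLR in Z9 without Empty a, Empty b, Z5 b, Z9 a or Z9 b or with no filter beyond 1 count.

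At the branch to lactate or mitochondria, LDHA and PDK1 differed. LDHA averaged 2124 ± 54.3 CPM (Empty), 2259.6 ± 202 (Z2), 2114 ± 41.7 (Z5) and 1943 ± 71.2 (Z9) and passed against Empty in no line, with a 95% interval of -0.12 to 0.091 for the mean. PDK1, the kinase that shuts pyruvate dehydrogenase, lies on chromosome 2 from 172555373 to 172724312 and was at 109, 119 and 119 CPM in Empty wells a, b and c, 136, 171 and 161 in the Z2 wells, 138, 148 and 146 in the Z5 wells and 122, 127 and 119.6 in the Z9 wells. The lowest Z2 or Z5 well (136 CPM) was above the highest Empty or Z9 well (127 CPM). PDK1 rose in Z2 (0.43 ± 0.068) and Z5 (0.31 ± 0.068, edgeR adjusted p = 2.6e-04 and 0.00485), and gave 0.084 in Z9 (adjusted p = 0.424).

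Of the HIF alpha subunits, HIF1A averaged 121 ± 5.59 CPM (Empty), 135 ± 19.3 (Z2), 119 ± 5.69 (Z5) and 120.0 ± 2.21 (Z9) and passed in no comparison, with a 95% interval of -0.094 to 0.17 for the mean. EPAS1, which encodes the second alpha subunit, was at 265, 298 and 281 CPM in Empty wells a, b and c, 220.3, 257 and 269 in the Z2 wells, 216, 244 and 247 in the Z5 wells and 211, 213 and 219 in the Z9 wells. The Z9 wells were all below the Empty wells, while Z2 overlapped Empty. EPAS1 fell in Z5 (-0.26) and Z9 (-0.39 ± 0.071, edgeR adjusted p = 0.0218 and 8.8e-04) and gave -0.18 in Z2. Among the oxygen sensors, EGLN3, itself a HIF target, lies on chromosome 14 from 33924227 to 33951074 and was at 37.8, 46.8 and 39.9 CPM in Empty wells a, b and c, 89.4, 123 and 108 in the Z2 wells, 85.4, 101 and 105 in the Z5 wells and 86.6, 102 and 109 in the Z9 wells. The highest Empty well (46.8 CPM) was far below the lowest labelled well (85.4 CPM). EGLN3 rose by 1.36 for Z2, 1.22 for Z5 and 1.26 for Z9 (SE 0.13 in each line, edgeR adjusted p = 2.4e-05, 6.9e-05 and 4.5e-05). EGLN1, the main sensor, rose in Z2 alone of the 3 comparisons (0.18, adjusted p = 0.0166), and whether the lines differ there was tested as Z9 minus Z2 (-0.15, adjusted p = 0.0887) and Z5 minus Z2 (-0.075, adjusted p = 0.596, edgeR). DESeq2 called EGLN1 lower in Z9 than in Z2. As a share of EGLN1 and EGLN3 together per length, EGLN3 was 16.4% ± 1.17 (Empty), 30.8% ± 2.97 (Z2), 29.9% ± 2.13 (Z5) and 31.5% ± 2.34 (Z9). EGLN2, a further EGLN gene, was outside this share, with mean counts of 0.15 CPM (Empty), 0.063 (Z2), 0.16 (Z5) and 0.17 (Z9). The EPAS1 call in Z5 was lost without Empty b or Z5 a, and the EGLN1 call without Empty a or Empty c and in the fit of Z2 and Empty alone.

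Among the 14 other HIF targets, 8 rose and 1 fell in Z2 (12.4% and 11.5% of all genes), 7 rose and 0 fell in Z5 (8.27% and 6.68%), and 3 rose and 0 fell in Z9 (9.66% and 9.58%). NDUFA4L2, which encodes a mitochondrial protein induced by HIF, was at 0.589, 0.745 and 0.888 CPM in Empty wells a, b and c, 5.37, 6.76 and 6.47 in the Z2 wells, 5.25, 5.81 and 6.35 in the Z5 wells and 3.84, 5.06 and 5.84 in the Z9 wells. The nearest wells were Empty c at 58 counts and Z9 a at 208. NDUFA4L2 rose by 3.04 for Z2, 2.95 for Z5 and 2.71 for Z9 (edgeR adjusted p = 6.3e-09, 8.4e-09 and 2.8e-08). MXI1, a MYC antagonist on chromosome 10 from 110207605 to 110287365, was at 29.6, 31.1 and 31.8 CPM in Empty wells a, b and c, 37.2, 46 and 43.4 in the Z2 wells, 35.9, 41.5 and 37 in the Z5 wells and 37.7, 40.4 and 39 in the Z9 wells. P4HA2, a collagen prolyl hydroxylase subunit on chromosome 5 from 132190147 to 132227853, was at 98.9, 107 and 97.4 CPM in Empty wells a, b and c, 123, 136 and 135 in the Z2 wells, 118, 125 and 130.4 in the Z5 wells and 114, 122 and 124 in the Z9 wells. For both, the Empty wells were the 3 lowest. MXI1 rose by 0.45 for Z2, 0.31 for Z5 and 0.34 for Z9 and P4HA2 by 0.37 for Z2, 0.30 for Z5 and 0.24 for Z9 (edgeR adjusted p = 3.4e-04, 0.0101 and 0.00372, and 2.0e-04, 0.00215 and 0.00694).

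BNIP3, BNIP3L, KDM3A and CA9 rose in Z2 and Z5 and did not pass in Z9. BNIP3, a mitophagy receptor on chromosome 10 from 131967684 to 131981923, was at 328, 341 and 336 CPM in Empty wells a, b and c, 385, 419 and 437 in the Z2 wells, 372, 407 and 421 in the Z5 wells and 334, 359.7 and 349.6 in the Z9 wells. Its relative BNIP3L was at 155, 165 and 161 CPM in Empty wells a, b and c, 189.6, 221 and 217 in the Z2 wells, 182, 197 and 199.6 in the Z5 wells and 162, 172 and 169 in the Z9 wells. For both, Z2 and Z5 wells lay above every Empty and Z9 well. BNIP3 rose in Z2 (0.31) and Z5 (0.26) and gave 0.055 in Z9, and BNIP3L gave 0.38 for Z2, 0.27 for Z5 and 0.067 for Z9, with the first pair past the test (edgeR adjusted p = 2.2e-04 and 0.00593). BNIP3 has 39 named pseudogenes, so its count is uncertain. KDM3A, a histone demethylase, rose in Z2 (0.30) and Z5 (0.21) and gave 0.16 in Z9 (adjusted p = 0.0743, edgeR). CA9, a surface carbonic anhydrase, averaged 155 ± 15.6 CPM (Empty), 200.2 ± 14.2 (Z2), 198 ± 24.6 (Z5) and 178 ± 16.1 (Z9) and rose in Z2 (0.37) and Z5 (0.35), and P4HA1 rose in Z2 (0.27). DDIT4, an mTOR inhibitor, fell in Z2 (-0.26), with Z2 b at 222 CPM as the lowest well. The targets VEGFA, an angiogenic growth factor, ADM, a vasodilator peptide, NDRG1, ANKRD37 and CA12 passed in no comparison. For VEGFA the 95% interval of the mean was -0.056 to 0.17, and for CA12, at 15 to 55 counts per well, it was -0.19 to 1.07, with a coefficient of variation within lines of 35.2%. Exons of CA9, DDIT4 and ANKRD37 overlap an antisense gene over 38.5%, 41.2% and 35.2% of their bases, and the strand setting is not given. By edgeR the call was lost for MXI1 in Z5 without Empty a or Z5 b, BNIP3 in Z5 without Z5 c, KDM3A in Z5 without any Empty well, Z5 b or Z5 c, and DDIT4 without Empty a, Empty b or Z2 b. CA9 lost its call in Z2 without Empty a, Z2 b or Z2 c, and in Z5 without Empty a, Empty c, Z2 b, Z5 b or Z5 c. Fits of the line and Empty alone also ended the calls of DDIT4 in Z2 and CA9 in Z5.

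Z9 was then set beside Z2 and Z5 directly, a comparison in which the Empty wells enter only through the filter, the scaling and the shared spread. The summed hepatocyte markers were also lowest in Z9 (56539 to 57813 CPM, against 58396 to 63209.6 in Z2), and their part in the result was not tested. Between Z9 and Z2, 12 of 43 members differed and all 12 were lower in Z9 (edgeR; DESeq2 called 13, all lower), with a median of -0.15 over the members. Over all genes tested, 5.17% were called, 1.96% higher and 3.21% lower in Z9, with a median of 0.0015. The 12 members were the transporters SLC2A1 (-0.29) and SLC2A3 (-0.65), the enzymes ALDOC (-0.57), PFKFB4 (-0.31), PGK1 (-0.25), PGAM1 (-0.21), ENO2 (-0.31), LDHA (-0.22) and PDK1 (-0.34), and the HIF targets P4HA1 (-0.22), BNIP3 (-0.25) and BNIP3L (-0.32). The smallest adjusted p was that of BNIP3L (0.0125) and the largest that of LDHA (0.0499, edgeR). ALDOC was at 61.6, 70.9 and 72.8 CPM in Empty wells a, b and c, 68.4, 85.1 and 95 in the Z2 wells, 70.1, 81 and 87.3 in the Z5 wells and 47.5, 61.3 and 59 in the Z9 wells. All Z9 wells lay under the Z2 and Z5 wells. PFKFB4 was at 154, 183 and 181 CPM in Empty wells a, b and c, 199, 193 and 228 in the Z2 wells, 186, 215 and 213 in the Z5 wells and 167, 173 and 162 in the Z9 wells, with the Z9 wells again the lowest of the labelled lines and within the range of Empty.

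Between Z9 and Z5 edgeR called 0 members, with 12 at an unadjusted p under 0.05 and a median of -0.12, and DESeq2 called 4, all lower in Z9. Over all genes edgeR called 1.52%, 0.432% higher and 1.09% lower. The members with the smallest adjusted p were PFKFB4 (-0.29, 0.0744), PGAM1 (-0.17, 0.0773) and ALDOC (-0.51, 0.0975, edgeR). Between Z5 and Z2, edgeR and DESeq2 called 0 members, with 9 at an unadjusted p under 0.05 in edgeR, and 0.00654% of all genes were called. By wells, 13 members (30.2%) had all Z9 wells below all Z2 and Z5 wells and 0 had them above, beside 6.82% and 5.64% of all genes. The 13 include HK2 and EGLN1 and all of the 12 but ENO2. The members with the largest changes against Empty did not differ past the test between Z9 and Z2, at -0.19 for HK1 (95% interval -0.36 to -0.021), -0.10 for EGLN3 (-0.38 to 0.17) and -0.34 for NDUFA4L2 (-0.64 to -0.028). The 12 calls between Z9 and Z2 rest on few wells, as do the calls over all genes. The number was 0 without Z9 a, 1 without Z9 b, 1 without Z9 c, 3 without Z2 b, 2 without Z2 c and 5 without Z5 b, 8 to 16 without any other library, and 0 when Z9 and Z2 were fitted alone. Between Z9 and Z5 the number of members called was 7 when those lines were fitted alone, 3 without Z2 a, 5 without Z2 b and 1 without Empty a or Z5 a. Over all genes, the 232 calls became 664 when those lines were fitted alone, 338 without Z2 a and 653 without Z2 b. They became 219 without Empty a and 237 without Z5 a. A fit with the replicate letter as a block also called members between Z9 and Z5.

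**Figure D4:**
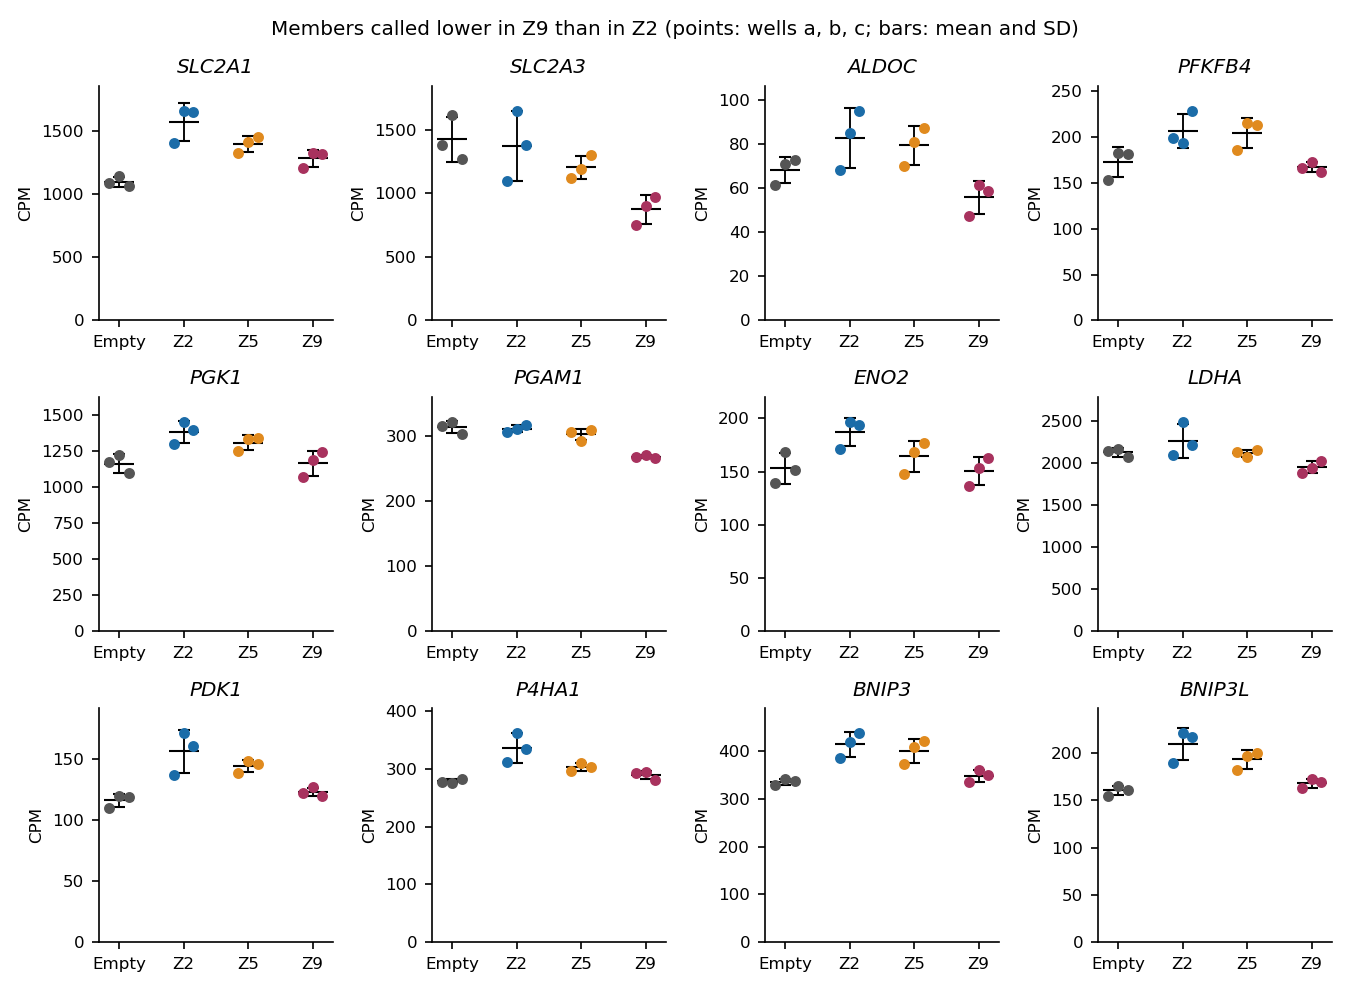
CPM per well (y axes from 0) of the 12 members lower in Z9 than in Z2, with mean and SD of each of the 4 lines. Z9 lies below Z2 in each panel, and the Z9 mean of ENO2 (151 CPM) lies close to that of Empty (153 CPM).

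Other genes of the same pathways were counted from lists set by function, also chosen with earlier results of these data known. They are therefore no independent check on the members. Of 34 tested further genes of glycolysis and pyruvate use, 2 rose and 8 fell in the mean of the 3 lines, with a median of -0.061 (13.0% and 12.6% of all genes, median 0.0029). PC, pyruvate carboxylase, rose (0.30), as did PDHB (0.11), a pyruvate dehydrogenase subunit. The monocarboxylate carrier SLC16A7 fell (-0.85, edgeR adjusted p = 4.2e-07), with averages of 8.44 ± 0.548 CPM (Empty), 4.77 ± 0.336 (Z2), 4.57 ± 0.180 (Z5) and 4.72 ± 0.393 (Z9). HKDC1, a hexokinase relative (-0.46), SLC2A2, the liver glucose carrier GLUT2 (-0.31), and PDP2, a pyruvate dehydrogenase phosphatase (-0.27), fell too. HKDC1 averaged 44.6 ± 2.77 CPM (Empty), 31.6 ± 4.01 (Z2), 33.6 ± 2.41 (Z5) and 31.8 ± 0.817 (Z9), above HK1 in each line. Of 55 tested further HIF pathway and target genes, 15 rose and 4 fell, with a median of 0.064. VLDLR, a lipoprotein receptor, averaged 30.1 ± 3.17 CPM (Empty), 64.3 ± 6.29 (Z2), 59.2 ± 3.32 (Z5) and 50.7 ± 4.93 (Z9). It rose (0.94, edgeR adjusted p = 2.5e-07), as did PPFIA4 (1.06), TFF3 (1.19) and TMEM45A (0.38). CITED2, which competes with HIF for its coactivators, fell (-0.62), as did EPO (-0.39), the erythropoietin gene, the matrix enzyme LOX (-0.47) and the repressor BHLHE40 (-0.23). By line, the HIF list had 19 higher and 3 lower in Z2, 12 and 2 in Z5, and 11 and 7 in Z9, beside 12.4% and 11.5%, 8.27% and 6.68%, and 9.66% and 9.58% of all genes. Between Z9 and Z2 it had 0 higher and 14 lower in Z9, beside 1.96% and 3.21%. The PDHB call was lost without any Empty well, Z2 c, any Z5 well or any Z9 well, with size factors from DESeq2 and with no filter beyond 1 count, and the BHLHE40 call without Empty a or Empty b (edgeR).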

How the data were processed

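RNA-seq read counts of 12 libraries (4 HepG2 lines, 3 wells each) were used as deposited. Per the submitters' processing notes, reads were processed with STAR and featureCounts on hg38; the sources used here give no versions, annotation, strand setting or treatment of reads with several positions. The deposited counts per gene are not normalized. No row without a gene name and no column of another sample was found. Of 26485 listed genes, 21343 were seen with at least 1 count. Genes were filtered with filterByExpr (15289 kept), scaled by TMM and fitted with edgeR 4.0.16 (quasi-likelihood, robust, 4 group means, 8 residual degrees of freedom) in R 4.3.3 with limma 3.58.1. P-values were adjusted by Benjamini-Hochberg over all genes tested, with calls at 0.05, and standard errors are the absolute log2 fold change over the root of F. Fitting was tested on simulated data with known changes. Wells were drawn independently from the fitted dispersions, with 50 genes changed at each fold in Z9 alone. At 1.3-fold, 42% of the changed genes were recovered for Z9 minus Empty and 56% for Z9 minus Z2. At 2-fold these shares were 86% and 90%. False calls made up 4.64% and 7.69% of all calls. The simulation held no well that stood apart, as Z2 b did, so these rates need not hold for the real data. Library totals (50864744 to 65428204 counts) set the counting precision. Alternatives were DESeq2 1.42.0 and its size factors, other count filters, a replicate block, fits of only the groups compared, and leaving out each library. Replicate letters were not taken as pairing the samples, since the labels tie them to no shared source. Deviations from the line means correlated at a median of 0.065 between wells with the same letter and -0.045 between wells with other letters. Of 18 same-letter pairs, 5 were above 0.1. Promoters and positions come from RefSeq (GRCh38.p14), exon lengths and overlaps from GENCODE release 29. The text names all 43 members, ZHX3, EGLN2, and up to 4 higher and 4 lower genes of each further list by adjusted p. Members and lists were chosen with earlier results of these data known.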

Additional observations from a re-analysis of the deposited data

Results flagged for a closer look

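A difference between labelled lines past the edgeR test (adjusted p under 0.05, Z9 minus Z2, log2) marked 12 members. All were lower in Z9: SLC2A3 at -0.65, ALDOC at -0.57, PDK1 at -0.34, BNIP3L at -0.32, ENO2 at -0.31, PFKFB4 at -0.31, SLC2A1 at -0.29, BNIP3 at -0.25, PGK1 at -0.25, P4HA1 at -0.22, LDHA at -0.22 and PGAM1 at -0.21. Each of the 12 calls was lost without at least 1 library, and all 12 were lost without Z9 a and in the fit of Z9 and Z2 alone. Over all genes, the 790 calls became 81 without Z9 a and 32 in the fit of Z9 and Z2 alone.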

How the results depend on the processing

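Of 1659 values of single genes under the alternatives, 1467 kept their call, 192 kept their direction and lost it, and 0 changed direction. The count of members called between Z9 and Z5 (0 in the edgeR fit of all libraries) was 4 with the DESeq2 Wald test, 1 with no filter beyond 1 count and 7 with only the groups compared; between Z9 and Z2 (12) it was 0 with only the groups compared. Leaving out each library in turn gave 10 to 19 members for Z5 against Empty, 0 to 16 for Z9 against Z2, 0 to 5 for Z9 against Z5 and 0 to 1 for Z5 against Z2. Calls kept in all 12 such fits numbered 13 of 20 in Z2, 7 of 17 in Z5, 10 of 12 in Z9 and 13 of 19 in the mean. The replicate block gave 26, 20, 14 and 24 members for Z2, Z5, Z9 and the mean against Empty. It gave 15 for Z9 against Z2, 6 for Z9 against Z5 and 0 for Z5 against Z2. Wells with the same letter correlated at a median of 0.065, and wells with other letters at -0.045. Of the same-letter pairs, 5 of 18 were above 0.1 (Z2 a, Z5 a and Z9 a at 0.12 to 0.17 among them). By best match, 6 of 12 libraries correlated best with their own letter. The letters were not taken as pairs because the labels tie them to no shared source. Over all genes, the calls between Z9 and Z2 (790) were 1406 with DESeq2, 1512 with the block, 32 with only the groups compared and 75 to 2399 without single libraries. Those between Z9 and Z5 (232) were 471, 488, 664 and 37 to 653, and those between Z5 and Z2 (1) were 9 with DESeq2 and up to 153 without a library. Against Empty, Z2 (3654) gave 2390 with only the groups compared, and leaving out Empty a gave 2130 for Z2, 1105 for Z5, 1720 for Z9 and 2107 for the mean (3911). Z5 (2286) gave 1087 without Z5 c and 1146 without Z5 b, and Z9 (2941) 1873 without Z9 b. The cause was not tested. CA12 had the fewest counts of the members, 15 to 55 per well.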

Other observations

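The median coefficient of variation within lines was 6.97% for the members and 7.64% for all genes tested, and 33 of 43 members were under 10%. It was highest for CA12 (35.2%), ADM (18.5%) and PFKFB1 (17.6%) and lowest for PGAM1 (2.26%).

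The mean centred log2 CPM of the 25 glycolysis and transport members was -0.14, 0.011 and -0.097 in Empty wells a, b and c, -0.014, 0.12 and 0.16 in Z2, -0.0056, 0.073 and 0.15 in Z5, and -0.18, -0.049 and -0.022 in Z9. That of the 18 HIF pathway members was -0.31, -0.18 and -0.27 in Empty, 0.047, 0.27 and 0.17 in Z2, -0.0020, 0.11 and 0.17 in Z5, and -0.14, 0.038 and 0.097 in Z9. Well a was the lowest of its line on both means in all 4 lines. On the glycolysis mean the Z9 and Empty wells overlapped, and on the HIF mean every Z9 well was above every Empty well. The HIF mean includes NDUFA4L2 and EGLN3, which rose by 2.71 and 1.26 in Z9 against Empty (log2). The median log2 fold change of Z9 against Empty was 0.096 for the other HIF targets and 0.0068 for the HIF subunits and oxygen sensors.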
